A study of Mus musculus with 30 samples.

Results

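The nuclear-encoded genes of the respiratory chain were followed in the fracture callus of lean and diet-induced obese (DIO) mice. Members were chosen by symbol alone, as the genes whose names start with Ndufa, Ndufb, Ndufc, Ndufs, Ndufv, Uqcr, Cox4, Cox5, Cox6, Cox7, Cox8 or Atp5, together with Sdha, Sdhb, Sdhc and Sdhd. Of 104 symbols that met this rule, 7 named as pseudogenes and 1 gene without a count in any library (Cox8c) were left out, which gave 96 members of the 27445 genes with at least 1 count. By subunit names they comprised 36 genes of complex I, 8 complex I assembly factors, 4 of complex II, 8 of complex III, 12 of complex IV, 17 of complex V, 7 isoforms known for particular tissues or conditions (Cox4i2, Cox6a2, Cox6b2, Cox7a1, Cox7b2, Cox8b and Ndufa4l2), and 4 genes that the annotation lists as processed pseudogenes (Cox6c2, Ndufa11b, Ndufb4c and Ndufs6b). The 77 genes of complexes I to V without the isoforms, assembly factors and pseudogenes are called chain subunits here. This class follows the symbol, also for Cox7a2l and Atp5s, and was not checked against the make-up of the finished complexes.

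The calli came from male C57BL/6J mice aged 20 weeks, either lean controls on a lean diet or DIO mice on a high-fat diet. All mice, controls included, had an open osteotomy of the right tibia stabilized with an intramedullary nail, and soft tissue around the callus was removed before the callus was frozen. Calli of both diets were collected on d3, d5, d7 and d10 after fracture, and those of DIO mice also on d14 and d21. Each group held 3 calli and each library 1 callus, 30 libraries in all. Lean mice of the last 2 days were not analysed here, and unfractured bone was not among these libraries.

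The respiratory chain sits in the inner mitochondrial membrane. Complex I (NADH dehydrogenase) and complex II (succinate dehydrogenase, also an enzyme of the tricarboxylic acid cycle) pass electrons to ubiquinone, complex III passes them to cytochrome c, complex IV (cytochrome c oxidase) passes them to oxygen, and complex V (ATP synthase) makes ATP from the proton gradient. Most subunits are encoded in the nucleus and a few core subunits in the mitochondrial genome, so each complex except complex II needs both gene sets. Chondrocytes of the soft callus are known to live largely on glycolysis, osteoclasts to be rich in mitochondria, and skeletal muscle fibres to carry their own isoforms of several complex IV subunits.

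Promoters of nuclear respiratory genes are known for binding sites of NRF1, of GABP and other ETS factors, of YY1 and of estrogen-related receptors (ERR). Of the 96 members, 74 matched an entry in the RefSeq promoter windows (GRCm38.p6, 250 bases before to 50 after the gene's start). The NRF1 motif, GCGCA and GCGC with any 1 base between them, occurred on either strand in 25.7% of the 74 members, against 5.19% of all genes with a window. CCGGAAG (ETS or GABP) occurred in 24.3% of the members against 9.93% of all genes, AANATGGCG (YY1) in 14.9% against 2.76%, and TNAAGGTCA (ERR) in 4.05% against 1.43%. These are letter matches and not measured binding. The members and all genes with a window were not matched in base composition or expression.

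Sequences upstream of 4 members are shown as examples, with matches in capitals. They do not stand for the typical member, as the NRF1 motif occurred in only 19 of the 74 members. The 4 are Sdha, the member with the largest increase past the threshold between d7 and d10 in DIO calli, Cox6a1, the widely expressed partner of a muscle isoform, and the muscle isoforms Cox7a1 and Cox8b. Each is the 250 bases before the RefSeq start, written 5′ to 3′ on the gene's strand: Sdha chr13:74350241-74350490 (minus strand), Cox6a1 chr5:115348959-115349208 (minus strand), Cox7a1 chr7:30183921-30184170 (plus strand) and Cox8b chr7:140900447-140900696 (minus strand).
Sdha: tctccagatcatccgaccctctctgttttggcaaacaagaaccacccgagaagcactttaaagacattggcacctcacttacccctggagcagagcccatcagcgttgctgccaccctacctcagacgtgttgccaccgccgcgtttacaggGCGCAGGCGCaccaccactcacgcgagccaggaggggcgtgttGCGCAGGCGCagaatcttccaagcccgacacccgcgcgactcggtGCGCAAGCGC
Cox6a1: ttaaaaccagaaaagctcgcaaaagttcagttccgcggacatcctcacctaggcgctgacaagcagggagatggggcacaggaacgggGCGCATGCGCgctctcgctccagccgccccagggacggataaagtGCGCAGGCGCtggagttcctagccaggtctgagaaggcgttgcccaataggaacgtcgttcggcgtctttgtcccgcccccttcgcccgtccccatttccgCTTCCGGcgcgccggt
Cox7a1: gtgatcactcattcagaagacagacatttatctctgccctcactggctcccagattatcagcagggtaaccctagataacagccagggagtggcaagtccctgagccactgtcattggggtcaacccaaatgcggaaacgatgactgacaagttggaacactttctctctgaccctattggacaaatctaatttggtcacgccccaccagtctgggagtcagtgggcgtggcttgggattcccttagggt
Cox8b: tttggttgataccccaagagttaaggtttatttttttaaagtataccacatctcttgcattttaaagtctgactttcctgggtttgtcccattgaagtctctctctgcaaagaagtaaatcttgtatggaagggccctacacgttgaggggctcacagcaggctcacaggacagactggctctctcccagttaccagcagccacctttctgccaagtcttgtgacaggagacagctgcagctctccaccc

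The Sdha stretch held 3 matches to the NRF1 letters, with first bases 98, 55 and 10 before the start. The Cox6a1 stretch held 2 NRF1 matches, at 162 and 117, and 1 ETS match on the other strand at 16. Cox7a1 and Cox8b held no match to any of the 4 motifs in these letters. Windows for Cox6a2, Cox4i2 and Ndufa4l2 were not used here.

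Total counts per library ran from 13247122 to 26365620. The members together took 0.96 to 1.88% of the counts of a library, with the highest shares in DIO d10 calli (1.53 to 1.88%). Levels are given as CPM, counts relative to the library total after scaling by TMM factors, and tests are the quasi-likelihood F-test of edgeR on the counts, with p-values adjusted over all genes tested and a threshold of 0.05. Libraries differed in muscle content within groups: the summed level of 20 skeletal muscle fibre genes was lowest in DIO d21 replicate 1 (671 CPM) and Lean d10 replicate 1 (1825 CPM) and highest in DIO d14 replicate 2 (43530.5 CPM). Lean d10 replicate 1 also held the highest summed level of 14 chondrocyte genes (96608 CPM, against 21918 and 23608 CPM in the other lean d10 calli). Calli of all groups held markers of cartilage, bone, marrow and muscle, and in such bulk samples fewer cells of a type and less RNA per cell cannot be told apart.

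Per length, as CPM per kilobase of exon averaged over all libraries, the members with the highest level were Cox6a1 (381), Cox6b1 (367), Cox8a (301), Uqcr10 (295) and Cox4i1 (291), all subunits of complexes III and IV. The median level per length was 138 for complex IV, 122 for complex V, 105 for complex III, 67.2 for complex II, 60.7 for complex I and 7.13 for the complex I assembly factors. Among chain subunits the lowest levels per length belonged to Ndufb2 (2.48) and Atp5s (3.83), whose annotated exons sum to 5628 and 2039 bases. The exon length counts every annotated transcript, so this order depends on the annotation. Cox7b2, known from testis, had 1 count in all libraries together. Cox7b2 and Ndufb4c did not pass the filter on low counts in any comparison, and Ndufa11b failed it in the comparisons between diets on d5 and d7.

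Over the days analysed, d3 to d10 in lean and d3 to d21 in DIO calli, the mean level of the chain subunits was highest on d10, the last lean day. For each library, the level of every chain subunit was divided by its mean over the 30 libraries and the median over the 77 genes was taken. In lean calli this relative level was 0.824 ± 0.0639 on d3 (SD, n = 3), 0.846 ± 0.126 on d5, 0.949 ± 0.188 on d7 and 1.18 ± 0.141 on d10. In DIO calli it was 0.889 ± 0.102 on d3, 0.856 ± 0.107 on d5, 1.02 ± 0.0829 on d7, 1.42 ± 0.203 on d10, 1.11 ± 0.151 on d14 and 0.886 ± 0.107 on d21. The lean d10 calli lay above the lean d3 calli without overlap but overlapped the lean d7 calli, whereas the DIO d10 calli lay above the DIO d7 calli without overlap. Without TMM scaling, the share of counts taken by all members overlapped, at 1.09 to 1.23% on lean d3 and 1.15 to 1.63% on lean d10. The group mean was highest on d10 for 70 of the 77 chain subunits in lean calli and for 74 of 77 in DIO calli. The DIO d21 calli, at 0.763 to 0.954, overlapped the DIO d3 calli, at 0.772 to 0.952.

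**Figure D1:**
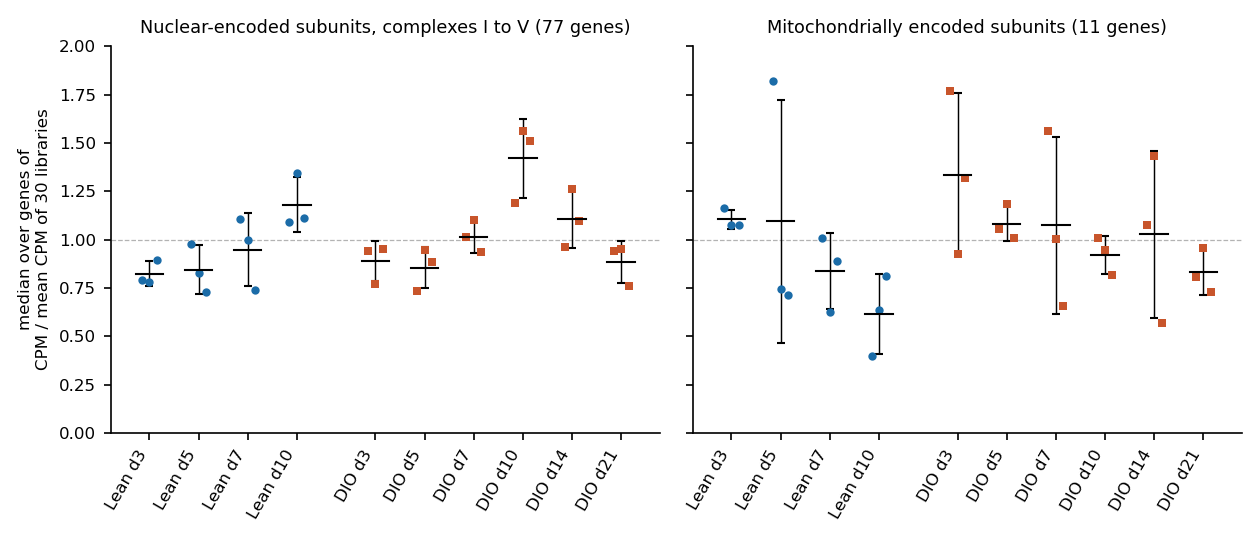
Level of nuclear-encoded chain subunits (left, 77 genes) and of mitochondrially encoded subunits (right, 11 genes) in each library, as the median over genes of CPM divided by the mean CPM of the 30 libraries. Points are libraries (blue circles lean, orange squares DIO), bars are group means and error bars are SD (n = 3); the mean of the nuclear-encoded genes is highest on d10 in both diets (1.18 in lean calli, for which d10 is the last day, and 1.42 in DIO calli), which is not so for the mitochondrially encoded genes.

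Of the 94 members tested, 22 differed between any of the lean days and 75 between any of the DIO days. Over all genes tested the share called was 19% over the lean days and 59.1% over the DIO days. The DIO fit covered more days and more libraries than the lean fit, so the counts are not a comparison of the diets. The lean count fell to between 4 and 14 when Lean d3 replicate 1, 2 or 3, Lean d5 replicate 2 or 3, or Lean d10 replicate 1 or 2 was left out, with 4 without Lean d10 replicate 2. By complex, the calls over lean days were 9 of 36 in complex I, 3 of 8 in complex III, 3 of 12 in complex IV and 5 of 17 in complex V, and in complex II the smallest adjusted p was that of Sdha (0.0894). Over the DIO days the calls were 35 of 36 in complex I, 3 of 4 in complex II, 7 of 8 in complex III, 10 of 12 in complex IV and 13 of 17 in complex V. The smallest adjusted p over the DIO days was 4.27e-05 in complex I (Ndufa6, with Ndufa1 and Ndufa13 next), 1.71e-04 in complex II (Sdha), 1.54e-04 in complex III (Uqcr10), 1.28e-04 in complex IV (Cox7a2l) and 5.08e-04 in complex V (Atp5l).

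Between neighbouring lean days no member was called by edgeR. From d3 to d5 the share called over all genes was 0.449%, with 0 members at an unadjusted p under 0.05 and 0 by DESeq2. From d5 to d7 no gene was called at all (0%), with 3 members at an unadjusted p under 0.05 and 0 by DESeq2. From d7 to d10, where 2.73% of all genes were called, 29 members had an unadjusted p under 0.05 and 8 were called by DESeq2, and 86 of the 94 log2 fold changes were positive with a median of 0.30. With 3 calli a day the edgeR test thus resolved no step between neighbouring lean days.

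Over the whole lean course, 37 of 94 members were higher on d10 than on d3 and none was lower, where 29.3% of all genes were called and 15.2% were called higher. The median log2 fold change of the members was 0.48, against 0.02 over all genes tested, and 90 of 94 were positive. Calls fell to 36 without Lean d10 replicate 1, the callus that stood apart, to 21 without Lean d10 replicate 2, to 23 without Lean d3 replicate 1 and to 18 without Lean d3 replicate 2, and the median stayed between 0.39 and 0.56 with any 1 library left out.

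In complex I, 18 of 36 subunits rose between lean d3 and d10 and all 36 fold changes were positive. Ndufa1 (chrX:37187588-37191163, minus strand, GRCm38), a small subunit of the membrane arm, had 45.2, 48.8 and 59.2 CPM on d3 and 70.9, 90.3 and 97.7 CPM on d10, from the lowest to the highest callus, and the groups did not overlap. Its log2 fold change was 0.78 ± 0.14 (SE, adjusted p = 0.00229). Ndufa2, another accessory subunit, was at 102 to 135 CPM on d3 and 184 to 247 CPM on d10, a log2 fold change of 0.91 ± 0.20 (SE, adjusted p = 0.00654). Ndufv3, an accessory subunit of the NADH-binding module, rose by 0.71 ± 0.15 (SE, adjusted p = 0.00611) on the log2 scale. Among the core subunits, Ndufv1, which binds NADH and the flavin, rose by 0.73 ± 0.19 (SE, adjusted p = 0.0131), whereas Ndufs1, which carries iron-sulfur clusters, differed by 0.02 ± 0.17 (SE, adjusted p = 0.928) and did not pass. The difference between core and accessory subunits was not tested.

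In complex II, 1 of 4 subunits rose. Sdha, the flavoprotein that oxidizes succinate, had 204, 219.8 and 223 CPM in the lean d3 calli and 249, 352 and 362 CPM in the d10 calli, a log2 fold change of 0.59 ± 0.18 (SE, adjusted p = 0.0284). The groups did not overlap. The iron-sulfur subunit Sdhb and the membrane anchors Sdhc and Sdhd had log2 fold changes of 0.41 ± 0.21, 0.27 ± 0.16 and 0.04 ± 0.18 (SE) and did not pass.

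In complex III, 3 of 8 subunits rose, all of them small. Uqcr10 had 111, 127 and 136 CPM on d3 and 204, 249.5 and 261 CPM on d10, a log2 fold change of 0.95 ± 0.20 (SE, adjusted p = 0.00473), and the groups did not overlap. Uqcrh, the hinge protein near cytochrome c1, rose by 0.90 ± 0.18 (SE, adjusted p = 0.00363) and Uqcr11 by 0.89 ± 0.19 (SE, adjusted p = 0.00502) on the log2 scale. The core protein Uqcrc1 and the Rieske iron-sulfur protein Uqcrfs1 differed by 0.43 ± 0.19 (SE, adjusted p = 0.111) and 0.47 ± 0.22 (SE, adjusted p = 0.13).

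In complex IV, 5 of 12 subunits rose. The largest change belonged to Cox7a2l (chr17:83501918-83517330), of the Cox7a family. Its level was 115, 130.4 and 152 CPM in the lean d3 calli, 142, 165 and 177 CPM on d5, 142, 189 and 194 CPM on d7 and 251, 269.8 and 287 CPM on d10. All 3 d10 calli lay above every earlier lean callus, and the log2 fold change from d3 to d10 was 1.04 ± 0.16 (SE, adjusted p = 0.00112). Cox4i1, a regulatory subunit, rose by 0.84 ± 0.18 (SE, adjusted p = 0.0055) and Cox7a2, the widely expressed relative of Cox7a1, by 0.71 ± 0.15 (SE, adjusted p = 0.00458). Cox5a and Cox5b, nuclear subunits beside the catalytic core, differed by 0.26 ± 0.24 (SE, adjusted p = 0.427) and 0.47 ± 0.19 (SE, adjusted p = 0.0743), which did not pass.

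In complex V, 8 of 17 subunits rose. These were Atp5e and Atp5d of the central stalk, Atp5h, Atp5j and Atp5o of the peripheral stalk, and Atp5j2, Atp5k and Atp5l of the membrane part. Atp5j2 had 156, 169 and 194 CPM on d3 and 249, 300.2 and 341 CPM on d10, and its log2 fold change was 0.80 ± 0.19 (SE, adjusted p = 0.00837). Atp5k changed by 0.68 ± 0.17 (SE, adjusted p = 0.0117) and Atp5h by 0.62 ± 0.16 (SE, adjusted p = 0.0126). The catalytic subunits Atp5a1 and Atp5b, with 805 to 1030.0 CPM of Atp5b on d3 and 1193 to 1329 CPM on d10, differed by 0.38 ± 0.18 (SE, adjusted p = 0.12) and 0.42 ± 0.19 (SE, adjusted p = 0.109), and the shaft subunit Atp5c1 by 0.35 ± 0.21 (SE, adjusted p = 0.218). None of these 3 passed.

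**Figure D2:**
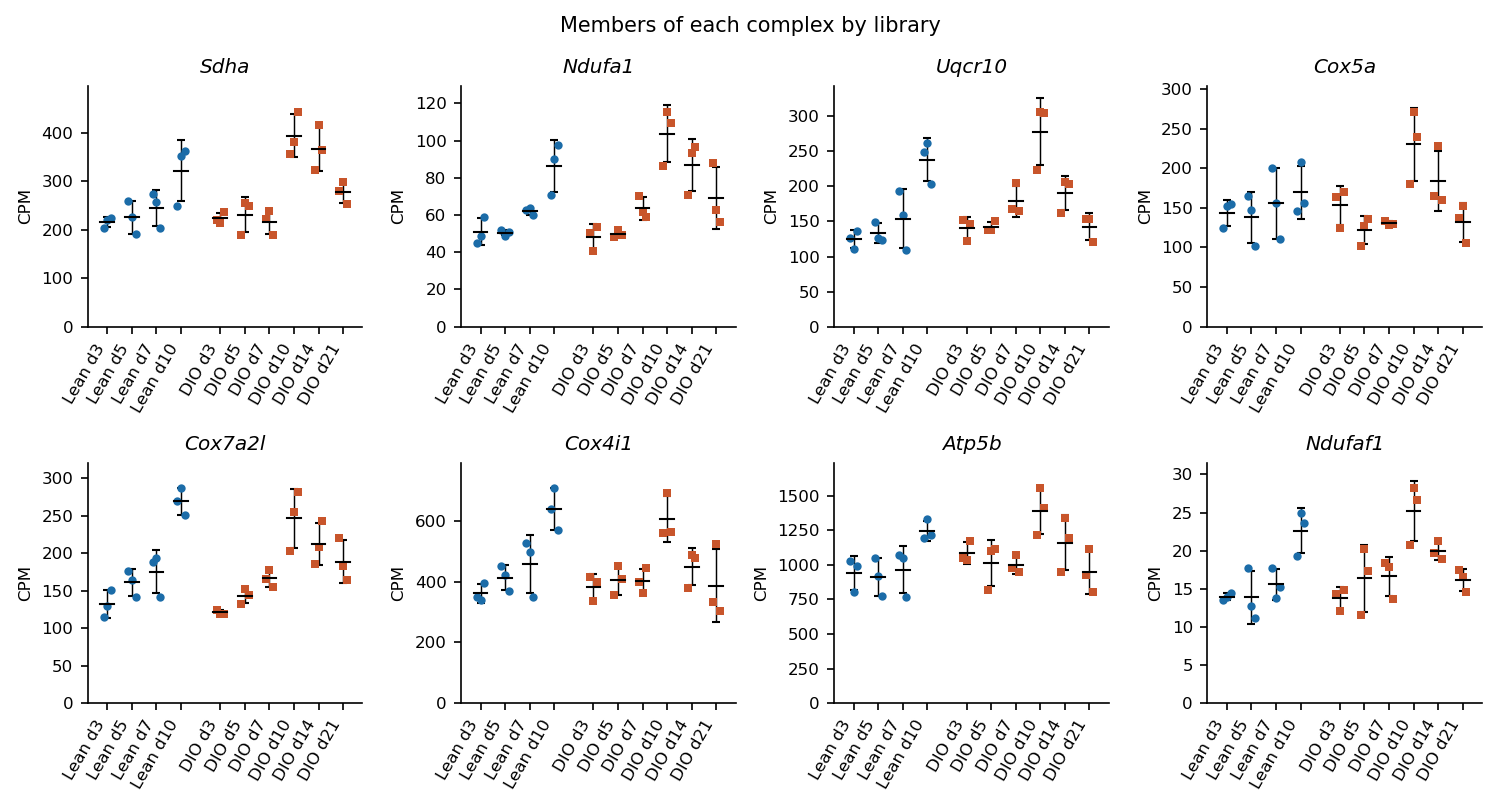
Level of 8 members in each library, in CPM, with 1 panel per gene (Sdha, Ndufa1, Uqcr10, Cox5a, Cox7a2l, Cox4i1, Atp5b and Ndufaf1). Points are libraries (blue circles lean, orange squares DIO), bars are group means and error bars are SD (n = 3). The DIO d10 calli are the highest DIO group in Sdha (356 to 443 CPM) and Cox5a (180.2 to 271 CPM), and the lean d10 calli the highest lean group in Cox7a2l (251 to 287 CPM).

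Cell type markers moved over the same days. From lean d3 to d10, 13 of 14 osteoclast genes rose, with summed levels of 1859 to 2506 CPM on d3 and 14404 to 17710.1 CPM on d10. All 14 chondrocyte genes rose, with 1440.4 to 2334 CPM on d3 and 21918 to 96608 CPM on d10. Of 11 osteoblast genes 9 rose, and of 14 leukocyte genes 7 fell and 1 rose. None of the 20 skeletal muscle fibre genes was called by edgeR, with 0 at an unadjusted p under 0.05, 0 called by DESeq2 and summed levels of 12453 to 20913 CPM on d3 and 1825 to 24851 CPM on d10. From a separate list of 8 slow muscle fibre genes, 1 was called by edgeR in either direction and 1 by DESeq2. The part of these cell types in the change of the respiratory genes was not tested.

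In DIO calli members were called higher between d7 and d10, after a smaller shift from d5 to d7. No member was called by edgeR from d3 to d5 (1.68% of all genes called, 1 member at an unadjusted p under 0.05, 0 by DESeq2) or from d5 to d7 (0.0177% of all genes called, 24 members at an unadjusted p under 0.05, 0 by DESeq2), although 85 of 94 log2 fold changes from d5 to d7 were positive with a median of 0.30. From d7 to d10, 26 of 94 members rose and 2 fell, where 13% of all genes were called, 6.01% higher and 7.01% lower. The median log2 fold change of the members was 0.46, against -0.02 over all genes tested. DESeq2 called 38 members. The count was 4 without DIO d10 replicate 2, 11 without DIO d10 replicate 3, 13 without DIO d7 replicate 1 and 16 without DIO d7 replicate 3, and the median stayed between 0.38 and 0.57 with any 1 library left out.

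The largest rise past the threshold was that of Sdha in complex II. Sdha (chr13:74322254-74350280) had 189, 222 and 239 CPM in the d7 calli and 356, 381 and 443 CPM in the d10 calli, and the groups did not overlap. Its log2 fold change was 0.85 ± 0.15 (SE, adjusted p = 0.00128). Sdhb had 139.5, 142 and 158 CPM on d7 and 204, 246 and 287 CPM on d10, a log2 fold change of 0.74 ± 0.17 (SE, adjusted p = 0.00819). Every d10 callus was above every d7 callus in both subunits. The anchors Sdhc and Sdhd differed by 0.47 ± 0.15 (SE, adjusted p = 0.0565) and 0.31 ± 0.17 (SE, adjusted p = 0.26).

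In complex I, 13 of 36 subunits rose and all 36 fold changes were positive. Ndufb2, of the membrane arm, rose by 0.84 ± 0.20 (SE, adjusted p = 0.0085) on the log2 scale, and Ndufs7, which carries the last iron-sulfur cluster before ubiquinone, by 0.76 ± 0.23 (SE, adjusted p = 0.032). The Ndufs7 call was lost when DIO d10 replicate 1, DIO d10 replicate 2, DIO d7 replicate 1 or DIO d7 replicate 2 was left out (adjusted p from 0.07 to 0.133). Ndufa1 had 58.7, 61.7 and 70.4 CPM on d7 and 86.2, 109.7 and 116 CPM on d10, a log2 fold change of 0.69 ± 0.17 (SE, adjusted p = 0.0116), and Ndufa6, an accessory subunit, rose by 0.62 ± 0.15 (SE, adjusted p = 0.00947). Of the other core subunits Ndufv1 rose by 0.58 ± 0.17 (SE, adjusted p = 0.0344), while Ndufs1 differed by 0.48 ± 0.17 (SE, adjusted p = 0.0661).

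In complex III, 4 of 8 subunits rose. Uqcrfs1, the Rieske protein, had 91.04, 104 and 111 CPM on d7 and 152, 189 and 190.2 CPM on d10, a log2 fold change of 0.78 ± 0.20 (SE, adjusted p = 0.0121). The d7 and d10 calli did not overlap. Uqcr10 rose by 0.62 ± 0.16 (SE, adjusted p = 0.0134) and Uqcr11 by 0.54 ± 0.16 (SE, adjusted p = 0.0329). The remaining call was Uqcrc2, at 0.52 ± 0.17 (SE, adjusted p = 0.0445), and Uqcrc1 differed by 0.67 ± 0.23 (SE, adjusted p = 0.0693).

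In complex IV, 2 of 12 subunits rose. Cox5a had 128, 129 and 133 CPM on d7 and 180.2, 239 and 271 CPM on d10, which did not overlap, and a log2 fold change of 0.81 ± 0.19 (SE, adjusted p = 0.00886), a call lost without DIO d10 replicate 2 (adjusted p = 0.0539). Cox7a2l rose by 0.55 ± 0.15 (SE, adjusted p = 0.0171). Cox5b, Cox4i1 and Cox6b1 differed by 0.32 ± 0.18, 0.58 ± 0.20 and 0.42 ± 0.16 (SE) and did not pass. Cox8a was at 168 to 223 CPM on d7 and 195 to 227 CPM on d10 and was not called in any comparison.

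In complex V, 4 of 17 subunits rose: Atp5g3, Atp5l, Atp5j2 and Atp5h. Atp5g3 encodes the c subunit of the rotor and had 225, 230.4 and 254 CPM on d7 and 324, 378 and 383 CPM on d10, a log2 fold change of 0.60 ± 0.18 (SE, adjusted p = 0.0333). Atp5l, Atp5j2 and Atp5h rose by 0.59 ± 0.17, 0.57 ± 0.18 and 0.54 ± 0.17 (SE). The catalytic Atp5a1 and Atp5b differed by 0.51 ± 0.18 (SE, adjusted p = 0.0732) and 0.46 ± 0.19 (SE, adjusted p = 0.113), and Atp5c1 by 0.39 ± 0.17 (SE, adjusted p = 0.15).

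Between DIO d7 and d10, 12 of the 14 osteoclast genes rose, with summed levels of 2132 to 2978 CPM on d7 and 15278 to 19576 CPM on d10, and 12 of the 14 chondrocyte genes fell, with 25519 to 53592 CPM on d7 and 6562 to 12759.5 CPM on d10. The 20 muscle fibre genes had summed levels of 11772 to 30749 CPM on d7 and 32235 to 43472 CPM on d10, which did not overlap, but 0 were called by edgeR, 1 was at an unadjusted p under 0.05 and 0 were called by DESeq2. From a separate list of 8 slow muscle fibre genes, 2 were called by edgeR in either direction and 2 by DESeq2. Their summed levels overlapped, at 283 to 477 CPM on d7 and 178 to 473 CPM on d10. Of 11 osteoblast genes 6 rose, with 25544 to 42547 CPM on d7 and 48051 to 52940.3 CPM on d10, which did not overlap. Of 10 adipocyte genes 6 rose. Of 8 brown or beige adipocyte genes, Ucp1, Cidea, Elovl3 and Zic1 were below 1 CPM on average and the other 4 were not. The 8 genes had summed levels of 40.3 to 94.3 CPM on d7 and 90.9 to 144 CPM on d10. Of these genes 0 were called by edgeR, 0 were at an unadjusted p under 0.05 and 0 were called by DESeq2. The part of osteoclasts, chondrocytes, osteoblasts, muscle and fat cells in the rise was not tested.

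After d10 the mean DIO level fell. The relative level of the chain subunits was 1.19 to 1.56 in d10 and 0.963 to 1.26 in d14 calli, which overlapped. The d21 calli, at 0.763 to 0.954, lay below the d14 calli without overlap. From d10 to d14 no member was called by edgeR (0.759% of all genes called), with 40 members at an unadjusted p under 0.05, 3 called by DESeq2, 90 of 94 log2 fold changes negative and a median of -0.35. From d14 to d21, 7 members fell and 1 rose, where 9.03% of all genes were called lower, 10.6% higher and 19.6% in either direction, and 91 of 94 fold changes were negative with a median of -0.31. The members that fell were Ndufc1, Ndufaf5, Ndufb2, Sdhb, Ndufb5, Sdhc and Ndufab1. The count of 8 was 1 without DIO d21 replicate 1, 3 without DIO d14 replicate 2, 4 without DIO d14 replicate 3, 4 without DIO d21 replicate 3, 5 without DIO d3 replicate 3 and 20 without DIO d21 replicate 2. Over the same days 6 of 10 erythroid genes rose, with 4035 to 13078 CPM on d14 and 27600.5 to 39103 CPM on d21. Lower on d21 were 4 of 11 osteoblast genes, 3 of 14 osteoclast genes (1 was higher), 2 of 14 chondrocyte genes and 2 of 20 muscle fibre genes. The muscle fibre genes had a median of -1.51 on the log2 scale. The part of these cell types in the fall was not tested.

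Ndufc1, a small complex I subunit, had 64.9, 68.1 and 85.2 CPM on d14 and 36.96, 37.2 and 53.4 CPM on d21, a log2 fold change of -0.76 ± 0.19 (SE, adjusted p = 0.0119), a call lost without DIO d21 replicate 1 (adjusted p = 0.0645). Sdhb had 163, 194 and 231 CPM on d14 and 105, 136 and 149 CPM on d21, a log2 fold change of -0.58 ± 0.17 (SE, adjusted p = 0.027). The call of Sdhb was lost when DIO d14 replicate 2, DIO d14 replicate 3, DIO d21 replicate 1 or DIO d21 replicate 3 was left out (adjusted p from 0.0649 to 0.108). Ndufb2 and Ndufb5 changed by -0.60 ± 0.20 (SE, adjusted p = 0.0411) and -0.54 ± 0.18 (SE, adjusted p = 0.0402), and these calls were lost with 10 and 7 of the 18 DIO libraries left out in turn.

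Compared with d3, the d21 DIO calli were at nearly the same level of the chain as a whole, although 45.3% of all genes were called, 23.5% higher and 21.8% lower. Of 94 members 7 were higher and 6 lower, and the median log2 fold change was -0.01. Among members classed by symbol as chain subunits, those that were higher were Cox7a2l (0.66 ± 0.15, adjusted p = 0.00145), Atp5s (0.63 ± 0.23), Atp5h (0.61 ± 0.17), Atp5l (0.56 ± 0.17), Ndufa1 (0.54 ± 0.17) and Ndufa6 (0.48 ± 0.15), and lower were Atp5g1 (-0.69 ± 0.19, adjusted p = 0.00704), Ndufa8 (-0.51 ± 0.18) and Sdhc (-0.47 ± 0.15), as log2 fold change ± SE. The call of Atp5h was lost when DIO d21 replicate 1 or DIO d3 replicate 2 was left out (adjusted p from 0.0573 to 0.0722), that of Atp5l when DIO d21 replicate 1 or DIO d3 replicate 2 was left out (adjusted p from 0.0821 to 0.0849), and those of Atp5s and Ndufa8 with 6 and 4 of the 18 libraries. The count of 13 was 6 without DIO d21 replicate 1 and 20 without DIO d21 replicate 2. At the same time 12 of 14 osteoclast genes were higher on d21 than on d3 (1404 to 1949 against 9049 to 12144 CPM), 10 of 10 erythroid genes were higher (729 to 829 against 27600.5 to 39103 CPM), and 5 of 20 muscle fibre genes were lower. Called in either direction were 8 of 10 adipocyte genes (334 to 616 against 1372 to 1442 CPM) and 9 of 14 leukocyte genes (4358 to 6282 against 9748 to 22351 CPM). So were 9 of 11 osteoblast and 6 of 14 chondrocyte genes, whose summed levels overlapped between the 2 days. The part of these cell types in the differences between d21 and d3 was not tested.

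**Figure D3:**
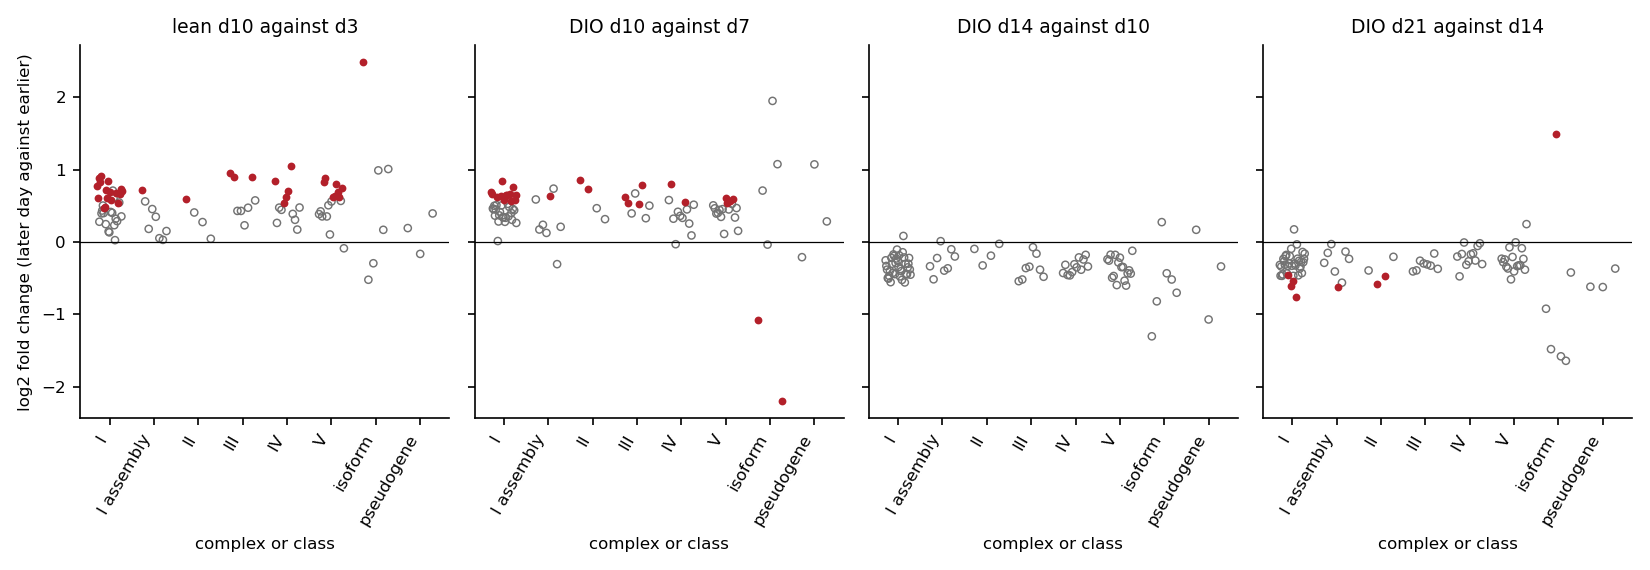
Log2 fold change of each member by class in 4 comparisons: lean d10 against d3, DIO d10 against d7, DIO d14 against d10 and DIO d21 against d14. Each point is 1 gene, filled red where the adjusted p of edgeR is under 0.05 and open where it is not; nearly all chain subunits lie above 0 in the first and second comparison (median of the members 0.48 and 0.46) and below 0 in the other two (-0.35 and -0.31), while the isoforms spread in both directions.

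The question whether obesity changed these genes was addressed within each day. On d3 no member was called by edgeR between DIO and lean calli (0% of all genes called), with 5 members at an unadjusted p under 0.05 and 2 called by DESeq2. On d5 none of 93 was called (1.08% of all genes), with 1 at an unadjusted p under 0.05 and 0 by DESeq2. On d7, 2 of 93 were higher in DIO calli (2.32% of all genes called in either direction, 1.4% higher), Cox4i2 and Ndufa4l2. On d10 none was called (0% of all genes), with 18 at an unadjusted p under 0.05 and 1 by DESeq2, although 85 of 94 fold changes were positive with a median of 0.26. Of the 77 chain subunits, 73 were at a higher mean in DIO than in lean calli on d10. With 3 calli per diet these d10 differences, at most 0.654 on the log2 scale among chain subunits, were not resolved from the spread between calli. On d10 the summed level of the 20 muscle fibre genes was 32235 to 43472 CPM in DIO and 1825 to 24851 CPM in lean calli, without overlap and with a median log2 difference of 1.30, while edgeR called 0 of them (2 at an unadjusted p under 0.05, 0 by DESeq2). The 14 chondrocyte genes had a median log2 difference of -2.67, with 0 called by edgeR, 13 at an unadjusted p under 0.05 and 0 called by DESeq2. The part of muscle and chondrocytes in the d10 difference of the members was not tested.

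Sdha on d10 had 249, 352 and 362 CPM in lean and 356, 381 and 443 CPM in DIO calli, a log2 difference of 0.30 ± 0.20 (SE, adjusted p = 0.727). Cox5a had 146, 156 and 208 CPM in lean and 180.2, 239 and 271 CPM in DIO calli, a difference of 0.45 ± 0.21 (SE, adjusted p = 0.686), and the calli of both diets overlapped. Cox7a2l differed by -0.12 ± 0.18 (SE, adjusted p = 0.888). Whether the diet difference varied over d3 to d10 was tested by an interaction over 24 libraries, which called 2 of 94 members (1.65% of all genes), and its change from d7 to d10 called the same 2 members, Ndufa4l2 and Cox4i2, as lower (5.07% of all genes in either direction, 3.37% lower).

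Cox4i2 (chr2:152754173-152765037) and Ndufa4l2 (chr10:127514967-127517154) were highest on d7 in DIO calli, whereas the mean of 74 of the 77 chain subunits was highest on d10. Cox4i2 is the alternative form of complex IV subunit 4, known for induction at low oxygen, and Ndufa4l2 is a relative of Ndufa4 that is induced by the hypoxia-inducible factor HIF-1 and lowers complex I activity. In lean calli Cox4i2 was at 7.01, 8.55 and 9.52 CPM on d3, 7.10, 12.99 and 25.3 on d5, 11.9, 15.1 and 15.9 on d7 and 26.5, 30.6 and 80.7 on d10. In DIO calli it was at 9.90, 10.5 and 18.6 CPM on d3, 22.9, 25.02 and 28.8 on d5, 31.3, 46 and 54.6 on d7, 18.2, 19.6 and 25.3 on d10, 5.96, 6.11 and 13.4 on d14 and 3.16, 3.63 and 6.56 on d21. The lean calli were highest on d10 and the DIO calli on d7.

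Ndufa4l2 in lean calli was at 21.9, 32.1 and 35 CPM on d3, 30.1, 39.5 and 44.9 on d5, 23.04, 26.03 and 39.5 on d7 and 28.8, 34.98 and 112 on d10. In DIO calli it was at 38.4, 56.7 and 91.8 CPM on d3, 42.2, 56.3 and 56.5 on d5, 56.9, 81.9 and 126 on d7, 17.2, 18 and 23.2 on d10, 8.02, 13.1 and 14.8 on d14 and 4.50, 8.57 and 13.4 on d21. The DIO calli of d10 and later lay below all DIO calli of d3 to d7, and in the lean d10 group 1 callus, replicate 1, held the value of 112.

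On the log2 scale Cox4i2 rose by 2.48 ± 0.48 (SE, adjusted p = 0.00327) between lean d3 and d10, a value that was 1.80 without Lean d10 replicate 1. Between DIO d7 and d10 it changed by -1.08 ± 0.33 (SE, adjusted p = 0.0367), a call lost when DIO d10 replicate 1, DIO d10 replicate 2, DIO d10 replicate 3, DIO d5 replicate 2, DIO d5 replicate 3, DIO d7 replicate 1 or DIO d7 replicate 3 was left out (adjusted p from 0.0511 to 0.118), and Ndufa4l2 changed by -2.19 ± 0.37 (SE, adjusted p = 7.68e-04). Between DIO d3 and d21 the changes were -1.52 ± 0.35 (SE, adjusted p = 0.00182) and -2.79 ± 0.39 (SE, adjusted p = 2.43e-05).

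On d7 the DIO calli were higher than the lean calli by 1.63 ± 0.24 (SE, adjusted p = 0.0154) in Cox4i2 and by 1.59 ± 0.31 (SE, adjusted p = 0.0323) in Ndufa4l2, without overlap. The Cox4i2 call was lost when Lean d7 replicate 1 or Lean d7 replicate 2 was left out (adjusted p from 0.0602 to 0.0845), and the Ndufa4l2 call when DIO d7 replicate 1, Lean d7 replicate 1 or Lean d7 replicate 2 was left out (adjusted p from 0.0618 to 0.156). From d7 to d10 the DIO minus lean difference changed by -2.75 ± 0.56 (SE, adjusted p = 0.00773) in Cox4i2 and by -3.18 ± 0.58 (SE, adjusted p = 0.00487) in Ndufa4l2. Without Lean d10 replicate 1 these changes were -2.06 and -2.29, still past the threshold. The partners Cox4i1 and Ndufa4 changed by 0.11 ± 0.23 (SE, adjusted p = 0.808) and 0.18 ± 0.30 (SE, adjusted p = 0.748) in the same test.

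Per length, Cox4i2 made up 4.47 to 7.85% of the Cox4 pair in lean d7 calli and 14.5 to 19.5% in DIO d7 calli, against 7.85 to 19.9% and 6.03 to 6.70% on d10. On d7 and d10 the chondrocyte genes differed between the diets in the same direction as these isoforms. The summed level of the chondrocyte genes was 8368 to 23632 CPM in lean and 25519 to 53592 CPM in DIO calli on d7. There 4 of 14 genes were called higher in DIO calli and none lower. On d10 the sum was 21918 to 96608 CPM in lean and 6562 to 12759.5 CPM in DIO calli. Ndufa4l2 did not follow this sum on all days. On DIO d3 the sum was 1228 to 2798 CPM, below DIO d10, whereas Ndufa4l2 was higher on d3 than on d10. On lean d3 the sum was 1440 to 2334 CPM, below lean d7, whereas the Ndufa4l2 values of these days overlapped. Other cell type genes also differed between the diets on d7. Of 14 osteoclast genes 7 were called, with summed levels of 5127 to 6478 CPM in lean and 2132 to 2978 CPM in DIO calli. Also called were 2 adipocyte, 2 leukocyte and 2 osteoblast genes. On d10 the osteoclast sums overlapped and 0 of these genes were called. The part of chondrocytes and of these other cell types in the isoform changes was not tested.

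**Figure D4:**
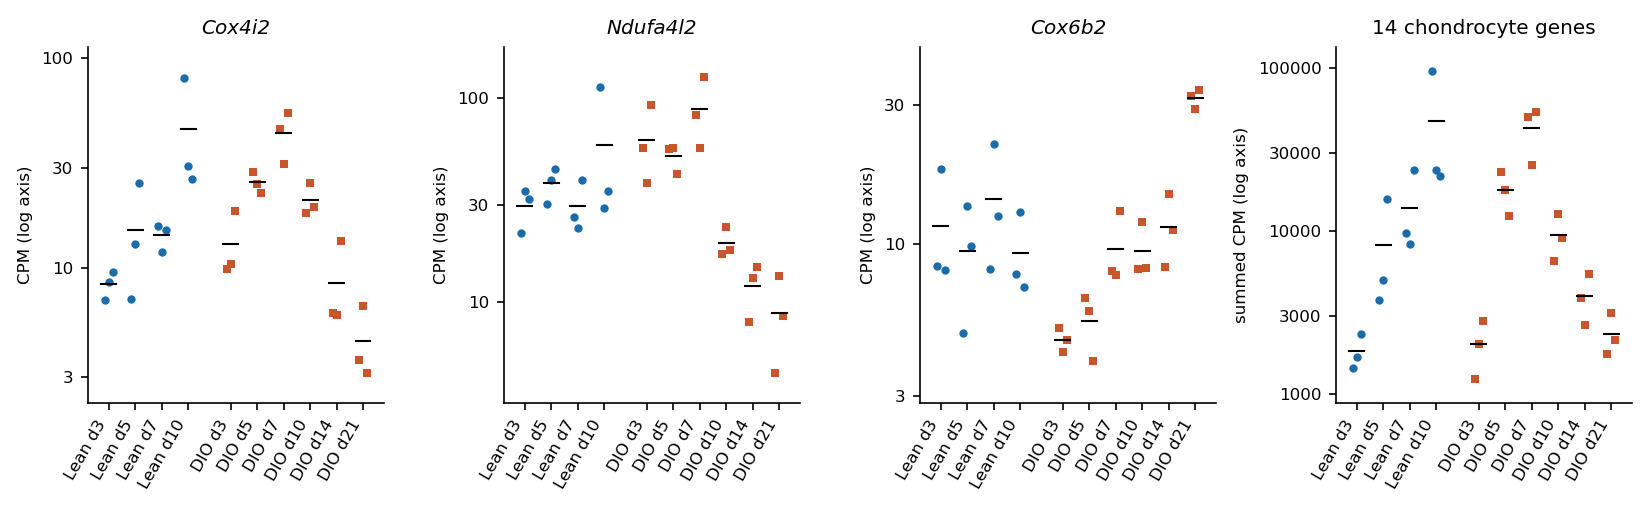
Level of Cox4i2, Ndufa4l2 and Cox6b2 in CPM and summed CPM of 14 chondrocyte genes in each library, on log axes. Points are libraries (blue circles lean, orange squares DIO) and bars are group means (n = 3). Cox4i2 is higher in the DIO d7 calli (31.3 to 54.6 CPM) than in the lean d7 calli (11.9 to 15.9 CPM) and falls by d10 in DIO calli, as do the chondrocyte genes, and Cox6b2 is highest in the DIO d21 calli (29.2 to 33.9 CPM).

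Cox6b2 (chr7:4751792-4753094), known as the testis form of complex IV subunit 6b, was the member with the largest rise on d21. It was at 4.27, 4.67 and 5.16 CPM in DIO calli on d3, 8.20, 8.26 and 11.95 on d10, 8.35, 11.2 and 14.8 on d14 and 29.2, 32.3 and 33.9 on d21, and all 3 d21 calli lay above every other library. Its log2 fold change was 2.78 ± 0.27 (SE, adjusted p = 9.36e-07) against d3 and 1.49 ± 0.25 (SE, adjusted p = 9.06e-04) against d14. Per length it made up 1.22 to 1.34% of the Cox6b pair on d3 and 7.55 to 9.90% on d21, while Cox6b1 differed by -0.04 ± 0.16 (SE, adjusted p = 0.849) between these days.

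The muscle forms of complex IV are Cox6a2, Cox7a1 and Cox8b, which muscle fibres use in place of Cox6a1, Cox7a2 and Cox8a. Cox6a2 (chr7:128205435-128206387) was at 77.04, 121 and 171 CPM in DIO d7 calli, 174, 195 and 240.1 on d10, 45.2, 105 and 193 on d14 and 7.55, 29.1 and 85.3 on d21. Between d7 and d10 it differed by 0.71 ± 0.59 (SE, adjusted p = 0.492), Cox7a1 by 1.95 ± 0.74 (SE, adjusted p = 0.0936) and Cox8b by 1.07 ± 0.66 (SE, adjusted p = 0.324). Between d3 and d21 Cox6a2 fell, at -1.88 ± 0.61 (SE, adjusted p = 0.0183), a call lost when DIO d21 replicate 3 or DIO d3 replicate 1 was left out (adjusted p from 0.052 to 0.0648). The spread within a group was wide: in the lean d10 calli Cox6a2 was at 11.8, 82.2 and 145 CPM, Cox7a1 at 4.26, 48.4 and 57.5 CPM and Cox8b at 7.77, 40.1 and 75.98 CPM.

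The lowest values of all 3 genes stood in DIO d21 replicate 1 and Lean d10 replicate 1, the libraries with the lowest muscle fibre sum. Per length, Cox6a2 made up 3.04 to 30.5% of the Cox6a pair in lean d10 calli and 3.30 to 26.7% in DIO d21 calli. The partner Cox6a1 spread less than Cox6a2 and was at 254, 342 and 388 CPM in the lean d10 calli and at 194, 228 and 242 CPM in the DIO d21 calli. The summed level of the 20 muscle fibre genes was 1825 to 24851 CPM in lean d10 and 671 to 21470.4 CPM in DIO d21 calli. How much of the isoform level belongs to muscle tissue left on the callus was not tested.

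**Figure D5:**
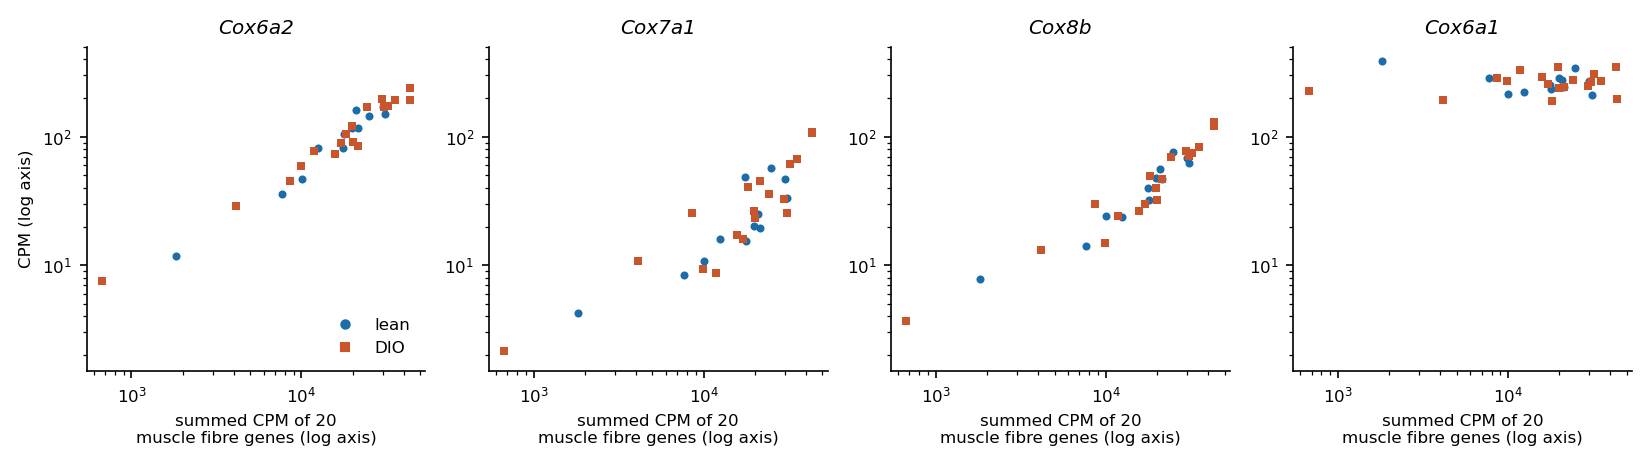
Level in CPM of Cox6a2, Cox7a1, Cox8b and of Cox6a1 for comparison against the summed CPM of 20 skeletal muscle fibre genes, on log axes. Each point is 1 library (blue circles lean, orange squares DIO). The muscle forms are lowest in the 2 libraries with the lowest muscle sums (671 and 1825 CPM), where Cox6a1 was at 228 and 388 CPM.

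Of the genes for the c subunit of ATP synthase, which encode the same mature protein, Atp5g3 rose in DIO calli between d7 and d10 (above), Atp5g1 differed by 0.45 ± 0.19 (SE, adjusted p = 0.132) and Atp5g2 by 0.11 ± 0.14 (SE, adjusted p = 0.687), and Atp5g1 was lower on d21 than on d3. Whether the 3 genes differed from each other was not tested. Cox7a2 differed by 0.33 ± 0.18 (SE, adjusted p = 0.248) between DIO d7 and d10, Cox7b by 0.45 ± 0.18 (SE, adjusted p = 0.112) and Cox6a1 by -0.03 ± 0.17 (SE, adjusted p = 0.936).

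Assembly factors of complex I do not stay in the finished complex but help to build it. Their median level per length, 7.13, was below that of each complex. Over the days 1 of 8 was called in lean and 2 of 8 in DIO calli, against 19% and 59.1% of all genes. From lean d3 to d10 and from DIO d7 to d10, 1 of 8 rose, where 15.2% and 6.01% of all genes were called higher. In lean calli this was, as CPM and as log2 fold change ± SE, Ndufaf1, a factor of early membrane-arm assembly, at 13.6, 13.95 and 14.4 CPM on d3 and 19.3, 23.7 and 24.9 CPM on d10 (0.72 ± 0.20, adjusted p = 0.0186). In DIO calli it was Ndufaf5, which modifies Ndufs7, at 11.8, 14.8 and 16.9 CPM on d7 and 20.2, 21.5 and 26.3 CPM on d10 (0.63 ± 0.17, adjusted p = 0.0189), and it was lower again on d21 than on d14 (-0.62 ± 0.17, adjusted p = 0.0193). The last call was lost when DIO d14 replicate 2 or DIO d21 replicate 1 was left out (adjusted p from 0.0686 to 0.093). Ndufaf2, Ndufaf4 and Ndufaf7 differed by 0.17 ± 0.24, 0.12 ± 0.19 and -0.31 ± 0.15 (SE) between DIO d7 and d10 and did not pass. The processed pseudogenes Cox6c2, Ndufa11b and Ndufs6b differed by -0.21 ± 0.41, 1.07 ± 0.51 and 0.28 ± 0.29 (SE) in the DIO comparison and did not pass.

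The subunits encoded in the mitochondrial genome were not highest on d10 in either diet. Their relative level, computed as for the chain subunits over 11 genes, was 1.11 ± 0.0497 in lean calli on d3 and 0.618 ± 0.207 on d10, and 1.07 ± 0.458 in DIO calli on d7 and 0.923 ± 0.0983 on d10 (SD, n = 3). Of 11 genes tested, 0 were called by edgeR in lean d10 against d3, with 5 at an unadjusted p under 0.05, 4 called by DESeq2 and a median log2 fold change of -0.80. In DIO d10 against d7, 0 were called by edgeR, 0 were at an unadjusted p under 0.05 and 0 were called by DESeq2, with a median of -0.21. mt-Nd1 differed by -0.74 ± 0.37 (SE, adjusted p = 0.144) and mt-Co1 by -0.91 ± 0.36 (SE, adjusted p = 0.0762) between lean d3 and d10. The libraries were made from poly(A) RNA, which captures mitochondrial transcripts by their short tails, and the spread between calli of 1 group was wide. The difference between the nuclear and the mitochondrial gene set was not tested.

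Neighbouring pathways were read from lists of genes outside the rule. Of 17 enzymes of the tricarboxylic acid cycle and pyruvate dehydrogenase, 5 rose and 1 fell between lean d3 and d10, and 7 rose between DIO d7 and d10. In the DIO comparison the isocitrate dehydrogenase subunit Idh3b rose by 0.95 ± 0.14 (SE, adjusted p = 2.79e-04) on the log2 scale. In the lean comparison Idh3b rose by 0.63 ± 0.20 (SE, adjusted p = 0.0322) and the malate dehydrogenase Mdh2 by 0.61 ± 0.17 (SE, adjusted p = 0.0193), while Suclg2, a subunit of succinyl-CoA ligase, changed by -0.46 ± 0.16 (SE, adjusted p = 0.0492).

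Of 17 regulators of mitochondrial biogenesis tested, 1 rose and 1 fell in the lean comparison and 1 rose in the DIO comparison. The coactivator Ppargc1b rose by 1.04 ± 0.29 (SE, adjusted p = 0.02) in lean calli and the GABP subunit Gabpb2 changed by -0.80 ± 0.21 (SE, adjusted p = 0.014). In DIO calli Perm1, a striated-muscle regulator, rose by 2.44 ± 0.73 (SE, adjusted p = 0.034). Nrf1 and Gabpa, whose motif letters were counted in the promoters, differed by 0.05 ± 0.15 (SE, adjusted p = 0.888) and -0.34 ± 0.15 (SE, adjusted p = 0.169), and Esrra by 0.42 ± 0.19 (SE, adjusted p = 0.159). Of 29 assembly factors of complexes II to V outside the symbol rule, 4 rose and 1 fell in the lean and 1 rose in the DIO comparison, and of 14 carriers and energy-transfer genes tested, 0 were called by edgeR in the lean comparison (3 at an unadjusted p under 0.05, 2 by DESeq2) and 3 in the DIO comparison (Slc25a13, Ckmt1 and Ckmt2). Ckmt1 was below 1 CPM on average. Of all genes 29.3% were called in the lean and 13% in the DIO comparison.

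Some members share sequence with other genes, which can move reads between them. Exons of 29 members overlap a gene on the opposite strand and those of 5 a gene on the same strand, and 42 members have a stretch of at least 100 bases with at least 95% identity in another gene. Among members named above this touches, besides others, Ndufb2, Ndufc1, Cox7a2l, Cox5a, Uqcr10, Uqcr11, Atp5h, Atp5g1, Atp5g2 and Atp5l, the last with 136 such genes. The strand setting of the counting is not given in the sources used here, so reads of a member and of a gene on the opposite strand, such as Ndufaf2 and B230220B15Rik, which share 65.6% of the exon bases of Ndufaf2, cannot be told apart.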

How the data were processed

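RNA-seq was analysed in 30 libraries, each from the callus of 1 mouse. Libraries were poly(A) selected and stranded. The authors processed the reads with bcl2fastq and BBDuk, aligned them to GRCm38 with HISAT2 2.1.0, used HTSeq for gene counts, and deposited these counts as raw, unnormalized whole numbers. Annotation, strand setting and version of the counting are not given in the sources used here. Everything else was computed from these counts.

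Identifiers of 42462 of the 43629 genes in the table were matched to GENCODE M21 (GRCm38) for symbols, types and exon lengths. Counts were scaled by TMM factors, genes were kept with filterByExpr, and groups were compared in edgeR 4.0.16 by its quasi-likelihood F-test (two-sided, R 4.3.3), with Benjamini-Hochberg adjustment over all genes that passed and a threshold of 0.05. Fits held the 12 lean libraries, the 18 DIO libraries, the 6 libraries of a day for the diets, or the 24 libraries of d3 to d10 for the interaction. The authors tested single comparisons with DESeq2, which was an alternative here (version 1.42.0), as were DESeq2's size factors (RLE), no filter, 1 fit of all 30 libraries, the replicate number as a block, and leaving out each library in turn. Total counts of 13247122 to 26365620 per library (median 16854427) leave counting error small for nearly all members. p-values measure the spread between mice.

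The members and gene lists were chosen with earlier results of these data known. Named with values are, per comparison, the members past the threshold with the 5 largest increases and decreases at a mean of at least 1 CPM, per complex those with the 3 smallest adjusted p-values over the days of each diet, and all isoform families and core subunits whatever their values. Values of some genes covered by these rules are not reported here. Other genes, among them Uqcrc2, those listed as called in complex V and the genes of the neighbouring pathways, were named after their values were seen. Replicate numbers of the groups do not pair the mice. In 135 same-numbered pairs the correlation of deviations from group means ran from -0.56 to 0.56 (median -0.01), and 46 exceeded 0.1. No 2 libraries of a group agreed within sampling noise (lowest chi-square per degree of freedom 14.2 over 30 pairs). Near-identical stretches were sought with BLAST 2.17.0, and motifs and figures were made in Python 3.11.15 with pandas 2.3.3 and matplotlib 3.10.9. The test was checked on simulated counts. Flow cytometry and imaging were not used here.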

Additional observations from a re-analysis of the deposited data

Results flagged for a closer look

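Ndufa4l2 and Cox4i2 were marked for a closer look because their difference between the diets changed with the day, by a test of that change itself. From d7 to d10 the DIO minus lean difference changed by -3.18 on the log2 scale in Ndufa4l2 and by -2.75 in Cox4i2. Over all 4 days shared by the diets, the interaction of diet and day had an adjusted p of 0.0281 in Ndufa4l2 and 0.0451 in Cox4i2 (edgeR quasi-likelihood test). Each test thus called 2 of 94 members (2.13%). Of all genes, the interaction called 1.65%, and the change from d7 to d10 called 5.07% (3.37% lower). All 3 DIO calli were higher than all 3 lean calli on d7, and all 3 DIO calli were lower than all 3 lean calli on d10 in both genes. The interaction over all 4 days was lost in Ndufa4l2 with 6 of the 24 libraries left out in turn and in Cox4i2 with 17 of them, among them Lean d10 replicate 1 (adjusted p = 0.0662 and 0.161), while the change from d7 to d10 stayed past the threshold with any 1 library left out. From d7 to d10 the 14 chondrocyte genes had a median log2 fold change of 1.57 in lean calli, where edgeR called 0 of them (5 at an unadjusted p under 0.05, 0 by DESeq2), and of -3.02 in DIO calli, where 12 fell. The change of their diet difference was called in 10 of 14, all lower. The same test called 9 of 14 osteoclast, 2 of 10 adipocyte, 1 of 14 leukocyte and 1 of 11 osteoblast genes in either direction. The part of these cell types in the change of both isoforms was not tested. Groups of 3 calli were too small for a test of single outlying libraries.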

How the results depend on the processing

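For counts of members called, 78 of the 90 values under another tool, scaling, filter, fit or block were within 1.5 times the reported count. The members changed over lean days numbered 37 with all 30 libraries in 1 fit and 35 with DESeq2, against 22. For lean d10 against d7 the count of 0 became 7 in the fit of all libraries, 8 with DESeq2, 1 with no filter and 3 with the replicate number as a block. For DIO d14 against d10 it became 3 with DESeq2 and 1 with no filter, for the diets on d3 it became 2 with DESeq2 and 2 with no filter, and for the diets on d10 it became 1 with DESeq2. The interaction of diet and day called 1 member with the replicate block, against 2. The numbers do not pair the mice, and no other count moved by over 1.5 times under the block. The cause of these changes was not tested.

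With 1 library left out, the members changed over lean days ranged from 4 to 28 and over DIO days from 56 to 77. Counts ranged from 18 to 44 for lean d10 against d3, from 0 to 3 for lean d10 against d7, from 4 to 36 for DIO d10 against d7, from 0 to 2 for DIO d14 against d10, from 1 to 20 for DIO d21 against d14 and from 6 to 20 for DIO d21 against d3. For the diets they ranged from 0 to 2 on d5, from 0 to 2 on d7 and from 0 to 2 for the interaction. For single named members, the settings of the paragraph above and leaving out 1 library together gave 1450 values. Of these 1326 kept their call, 124 lost it and 0 reversed. Depth limits Cox7b2, which had 1 count in all, and Ndufa11b and Ndufb4c, with means of 0.545 and 0.329 CPM. Whether more calli or deeper libraries would change the calls of other members was not tested.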
